A study of Mus musculus with 19 samples.

Results

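The genes described here encode the subunits of the receptors for glutamate and GABA, the main excitatory and inhibitory transmitters of the brain. They were taken by symbol as the AMPA (*Gria*), kainate (*Grik*), delta (*Grid*), NMDA (*Grin*) and metabotropic (*Grm*) glutamate receptor genes and the genes of GABA-A receptor subunits (*Gabra*, *Gabrb*, *Gabrg*, *Gabrr*, *Gabrd*, *Gabre*, *Gabrp* and *Gabrq*). This gave 45 of the 55573 genes measured in 7 tissues, the same 45 of 55487 genes measured in brown adipose tissue (BAT) of cold-exposed mice, and 8 of the 13756 genes listed for inguinal white adipose tissue (iWAT) of cold-exposed mice.

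The study looked at the muscle-secreted peptide Musclin and its effect on fat, with RNA-Seq of 19 mouse libraries. Brain, small intestine, liver, heart, tibialis anterior (TA) muscle and a white and a brown fat depot came from chow-fed C57BL/6J wild-type (WT) mice, with 1 library each, and the labels give neither the age of these mice nor the region of the brain. iWAT and BAT came from chow-fed 5-month-old male mice kept at 8 °C for 1 week, with 3 WT and 3 MCK-Musclin libraries per tissue. MCK-Musclin mice carry the *Musclin* coding sequence behind the promoter of murine muscle creatine kinase, a promoter that drives expression in skeletal muscle, on the C57BL/6J background. Which founder line was sequenced is not stated in the sources used here.

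AMPA receptors carry most fast excitatory current, and NMDA receptors pass calcium when glutamate and depolarization coincide. Both are assemblies of 4 subunits, as are kainate receptors, while metabotropic receptors are G protein-coupled and work as dimers. A GABA-A receptor is a chloride channel of 5 subunits, most often alpha, beta and gamma, and several of its genes lie side by side on the chromosomes.

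All values are FPKM, in which the fragments of a gene are divided by exon length and by library size, so levels of different genes can be set side by side. In genes with a single transcript, the steps between low values put 1 fragment in a kilobase of transcript at 0.0475 to 0.0615 FPKM in the 13 libraries of the 7 tissues and BAT, so 0.1 FPKM stands for 1.63 to 2.11 fragments per kilobase. Such steps were not measured for iWAT, and the depth of its libraries is unknown. The marker lists of heart, skeletal muscle, liver, brown fat and small intestine each had their highest sum in the tissue of that name, and adipocyte markers in white adipose tissue. Single markers could differ from their list. Of the brown fat markers, *Cidea* and *Ucp1* were highest in brown adipose tissue. *Elovl3* was higher in liver (6.84 against 0.0862 FPKM), and *Ppargc1a* was higher in heart. The heart marker *Myl7* was at 3.52 FPKM in heart and 3.54 in small intestine. Astrocyte markers summed to 249 FPKM in liver and 218 in brain. The 6 neuron markers summed to 4976 FPKM in brain and to between 1.10 and 11.0 FPKM elsewhere. In the cold BAT libraries *Ostn*, the gene of Musclin, was listed at 0 in WT and was at 30.3 to 37.9 FPKM in MCK-Musclin. In cold iWAT it was at 5.17 and 4.21 FPKM in MCK-Musclin libraries 2 and 3, while the library labelled MCK-Musclin replicate 1 was listed at 0, like WT libraries 1 and 2. The 4 skeletal muscle markers summed to 1.78 FPKM in that library and to 34.5 and 38.6 FPKM in MCK-Musclin libraries 2 and 3, and to 1.15, 180 and 1146 FPKM in WT libraries 1 to 3, so the muscle RNA in iWAT differed widely within groups.

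In brain the subunit genes were both numerous and abundant, and most were near the limit of detection elsewhere. Of the 41 members above 0 in some tissue, 39 (95.1%) had their highest FPKM in brain, against 29.8% of the 28131 genes above 0. Brain held 95.2% of the FPKM summed over all members and tissues, with 831 FPKM, against sums of 1.22 FPKM in TA muscle, 6.07 in heart, 6.65 in brown adipose tissue, 6.66 in liver, 7.20 in small intestine and 13.9 in white adipose tissue. With 1 library per tissue there is no replicate error, and these values are descriptions.

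**Figure D1:**
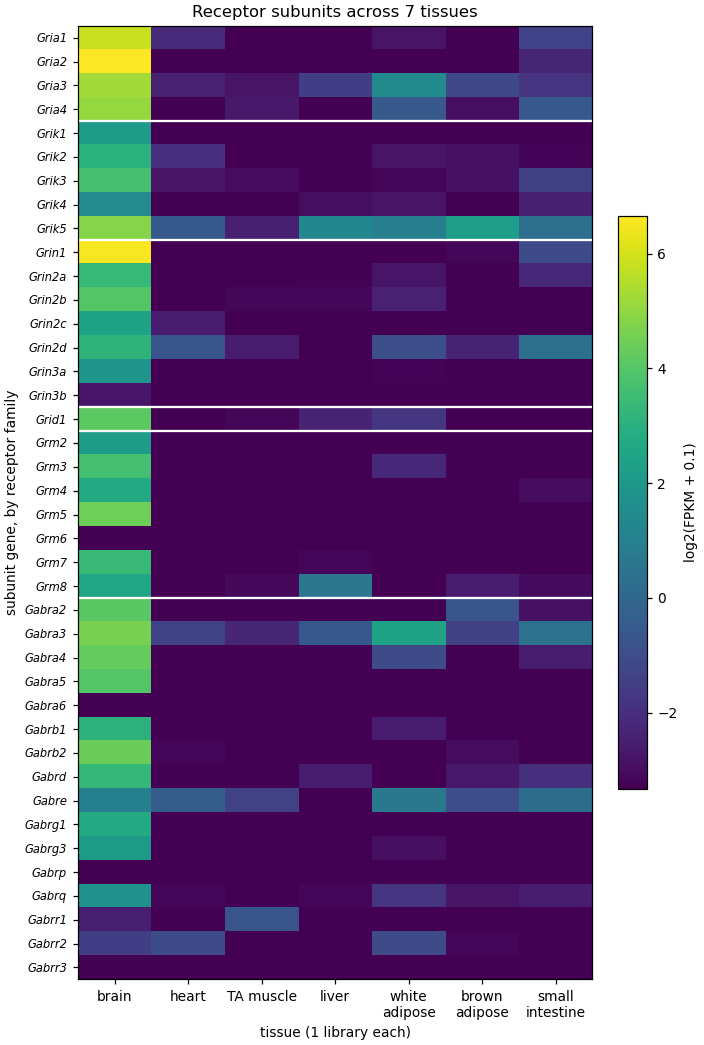
Level of 40 subunit genes (rows, grouped by receptor family with white lines between families) in 7 tissues (columns, 1 library each), as log2(FPKM + 0.1). The brain column is bright for the 33 genes drawn that are at 1 FPKM or more, and the 6 other columns are mostly at the dark end of the scale, apart from genes such as *Grik5*, *Gabra3* and *Gabre*.

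The sequence before the start of 30 of the members was found in RefSeq (GRCm38.p6), as 37 windows of 300 bases that end 50 bases into the transcript. They were searched on both strands for the 2 conserved stretches of the RE1 element, the site of the neuronal repressor REST, written as TTCAGCACC and GGACAG. The longer stretch is in 0.371% of all 32851 windows and in 1 of the 37 windows of members, that of *Grm2*, and the shorter one is in 22.2% of all windows and in 12 (32.4%) of those of members. The windows of 3 genes are shown, with exact matches on either strand in capitals. They are those of the most abundant AMPA gene, the obligatory NMDA subunit and the gene with an exact match to both stretches. The distance between the stretches was not considered, and near matches were neither searched nor marked, so the windows are not ranked as RE1 elements.
Gria2, chr3:80802786-80803085 (minus strand): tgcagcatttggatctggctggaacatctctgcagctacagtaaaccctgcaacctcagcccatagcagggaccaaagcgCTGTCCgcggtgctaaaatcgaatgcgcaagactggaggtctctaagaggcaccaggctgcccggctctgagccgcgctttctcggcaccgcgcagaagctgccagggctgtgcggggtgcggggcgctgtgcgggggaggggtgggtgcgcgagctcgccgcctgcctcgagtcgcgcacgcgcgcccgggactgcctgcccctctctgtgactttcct
Grin1, chr2:25319138-25319437 (minus strand): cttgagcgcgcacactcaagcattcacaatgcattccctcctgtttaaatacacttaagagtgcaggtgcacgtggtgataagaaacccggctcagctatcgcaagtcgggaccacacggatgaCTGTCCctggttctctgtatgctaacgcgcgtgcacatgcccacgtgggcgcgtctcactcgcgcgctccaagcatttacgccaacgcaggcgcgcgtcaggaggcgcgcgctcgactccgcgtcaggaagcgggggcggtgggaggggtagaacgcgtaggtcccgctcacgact
Grm2, chr9:106656060-106656359 (minus strand): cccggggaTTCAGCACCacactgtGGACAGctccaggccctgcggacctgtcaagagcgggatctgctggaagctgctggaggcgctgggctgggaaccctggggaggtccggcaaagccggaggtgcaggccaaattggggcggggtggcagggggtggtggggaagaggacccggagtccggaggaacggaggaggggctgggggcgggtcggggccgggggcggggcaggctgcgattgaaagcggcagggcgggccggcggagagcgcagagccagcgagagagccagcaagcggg
*Grm2* encodes a presynaptic receptor, had 4.41 FPKM in brain and was listed at 0 in the 6 other tissues. A match of letters is a description of the window and not a site of binding.

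Among AMPA receptor genes all 4 were abundant in brain. *Gria2*, whose subunit keeps the channel from passing calcium, was the highest member of all at 100.03 FPKM. *Gria1* had 55.6 FPKM, *Gria3* 38.2 and *Gria4* 33.9. The family summed to 228 FPKM, 27.4% of the member sum in brain.

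The NMDA receptor genes were ordered by their roles. *Grin1*, the obligatory subunit that binds glycine or D-serine, had 93.9 FPKM, which is 2.33 times the 40.2 FPKM of the glutamate-binding subunits *Grin2a* to *Grin2d* together. *Grin2b*, the subunit that prevails in the young forebrain, had 15.7 FPKM and *Grin2a*, the subunit that rises with maturation, had 10.3, a ratio of 1.53. FPKM depends on the annotated length, and the longest transcripts have 24060 bases for *Grin2b*, 14634 for *Grin2a* and 4276 for *Grin1*. The part of length in these ratios was not tested. *Grin2d* had 8.77 FPKM and *Grin2c* 5.45. Of the GluN3 subunits, *Grin3a* had 3.54 FPKM and *Grin3b* 0.0533, and exons of the latter overlap *Tmem259*, so that reads of the pair cannot be told apart without strand. *Grin1* overlaps its antisense gene *Grin1os* in the same way.

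Kainate and delta receptor genes were lower. *Grik5*, which encodes a high-affinity subunit that needs a partner of the low-affinity kind, was the highest kainate gene at 28.8 FPKM, followed by the low-affinity subunits *Grik3* at 13.0, *Grik2* at 8.06 and *Grik1* at 4.28, while *Grik4*, the other high-affinity subunit, had 2.71. The delta receptor gene *Grid1* had 17.5 FPKM.

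Of the 8 metabotropic genes, 7 were above 1 FPKM in brain. *Grm5*, a Gq-coupled postsynaptic receptor, led with 21.4 FPKM. The Gi-coupled receptors followed as *Grm3* at 12.5, *Grm7* at 10.3, *Grm4* at 6.65, *Grm8* at 5.80 and *Grm2* at 4.41. *Grm6*, the receptor of retinal ON bipolar cells, was listed at 0 in all 7 tissues.

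The 19 GABA-A receptor genes summed to 317 FPKM in brain, 38.2% of the member sum and the largest share of any family. The alpha genes summed to 164 FPKM, 2.04 times the 80.4 FPKM of the beta genes, and the gamma genes summed to 58.0 FPKM, 0.721 times the beta sum. Among the alpha genes were *Gabra3* at 24.2, *Gabra4* at 19.5, *Gabra2* at 16.9 and *Gabra5* at 15.7 FPKM. *Gabrd*, whose subunit takes the place of gamma in extrasynaptic receptors, had 9.76 FPKM. *Gabra6*, the alpha subunit of cerebellar granule cells, was listed at 0 in brain and everywhere else, as were *Gabrp* and *Gabrr3*. The rho genes known from the retina, *Gabrr1* and *Gabrr2*, had 0.0770 and 0.259 FPKM in brain and were the 2 members with a higher level in another tissue, *Gabrr1* in TA muscle (0.506 FPKM) and *Gabrr2* in white adipose tissue (0.386 FPKM) and heart (0.382 FPKM).

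**Figure D2:**
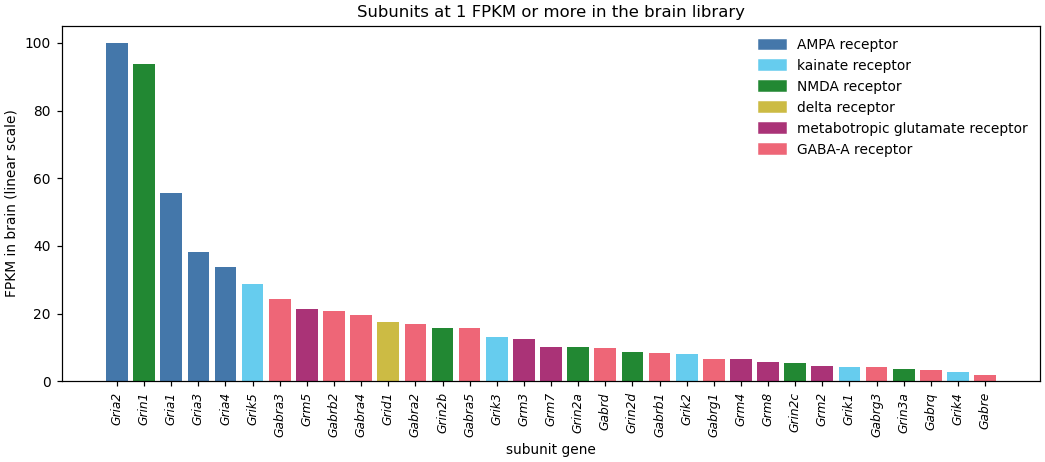
FPKM in the brain library (linear axis from 0, 1 library, so no error bars) of 33 subunit genes at 1 FPKM or more, in descending order and coloured by receptor family. *Gria2* and *Grin1* stand at 100.03 and 93.9 FPKM, above *Gria1* at 55.6 FPKM.

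The genes that travel with these receptors were read from lists of known partners. All 14 AMPA and kainate auxiliary subunit genes were highest in brain, where they summed to 289 FPKM. Of the glycine receptor genes 4 of 5 were highest in brain, led by *Glrb*, the beta subunit that anchors the receptor, at 38.1 FPKM, and *Glra4* was listed at 0. Of the postsynaptic scaffold genes 15 of 19 were highest in brain, among them *Dlg4*, the gene of PSD-95, at 220 FPKM. The lists that also serve metabolism were less bound to brain: 8 of 13 transmitter transporters, 5 of 8 genes of transmitter synthesis and breakdown, and 1 of 6 genes that supply D-serine and glycine had their highest level there. *Slc6a13*, a GABA and taurine transporter, had 46.4 FPKM in liver and 33.8 in white adipose tissue, against 2.22 in brain. *Gad1* and *Gad2*, the enzymes that make GABA, had 74.9 and 39.0 FPKM in brain and at most 0.108 FPKM in any other tissue.

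Outside brain, a smaller share of the subunit genes was detected than of brain-expressed genes at large, as a count without a test. Of the 38 members at 1 FPKM or more in brain, 22 (57.9%) reached 0.1 FPKM in another tissue, against 94.9% of the 13795 genes at 1 FPKM or more in brain. A total of 6, among them *Gabra5*, *Gabrg1*, *Grik1*, *Grm2* and *Grm5*, were listed at 0 in all 6 other tissues, 15.8% of these members against 3.11% of the genes. Of all 45 members, 24 reached 0.1 FPKM somewhere outside brain, 11 reached 0.5 FPKM and 8 reached 1 FPKM. The small intestine had 13 members at 0.1 FPKM or more (28.9%, against 32.4% of all genes) and white adipose tissue 11 (24.4% against 32.3%). Heart had 8 (17.8% against 27.7%) and brown adipose tissue 6 (13.3% against 29.8%). Liver had 5 (11.1% against 27.0%) and TA muscle 3 (6.67% against 25.3%). The small intestine also had the highest neuron marker sum outside brain, 11.0 FPKM, and whether nerve cells in the sampled wall carry its subunit RNA was not tested.

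*Gabra3* was the member with the highest level outside brain. It had 5.23 FPKM in white adipose tissue, 21.6% of its brain level, 1.25 in small intestine, 0.565 in liver, 0.309 in heart, 0.272 in brown adipose tissue and 0.108 in TA muscle. The neuron marker sum in white adipose tissue was 3.28 FPKM. *Gabre*, the epsilon subunit, was at nearly the same level in white adipose tissue (1.48 FPKM) as in brain (1.86 FPKM), and had 1.04 FPKM in small intestine, 0.676 in heart, 0.415 in brown adipose tissue and 0.289 in TA muscle. Of the beta genes, whose subunits GABA-A channels usually need, *Gabrb1* was at 0.0714 FPKM and *Gabrb2* listed at 0 in white adipose tissue, and of the gamma genes *Gabrg3* had 0.0312 FPKM and *Gabrg1* was listed at 0.

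*Grik5* was the broadest kainate gene. It had 4.52 FPKM in brown adipose tissue, 2.39 in liver, 1.82 in white adipose tissue, 1.11 in small intestine, 0.604 in heart and 0.0835 in TA muscle. Its low-affinity partners *Grik1*, *Grik2* and *Grik3* were each at 0.0362 FPKM or less in brown adipose tissue and listed at 0 in liver. Kainate genes had the lowest brain share of any family, 83.4%.

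Single tissues stood out for a few other members. *Grm8* had 1.43 FPKM in liver, 24.6% of its brain level, and at most 0.0692 FPKM in the remaining tissues outside brain. *Gria3* had 2.65 FPKM in white adipose tissue and at most 0.343 FPKM in the remaining tissues outside brain. *Gria4* had 0.593 FPKM in white adipose tissue and 0.574 in small intestine. *Grin2d* had 1.18 FPKM in small intestine, where *Grin1*, without which an NMDA receptor does not form, had 0.386. *Gabra2* had 0.518 FPKM in brown adipose tissue. Of the genes that work with these subunits, *Cacng7*, an AMPA auxiliary subunit, had 10.1 FPKM in white adipose tissue, and *Gsg1l* had 3.22 FPKM in heart.

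**Figure D3:**
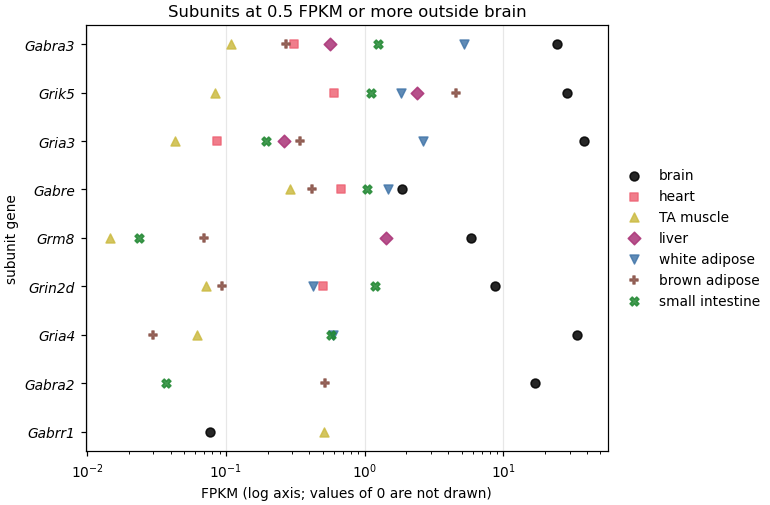
FPKM on a log axis (horizontal) of 9 subunit genes (rows) that reached 0.5 FPKM in a tissue other than brain, 1 point per tissue (1 library each), with values of 0 left out. Black brain points lie to the right for each gene but *Gabrr1*, and *Gabre* in white adipose tissue (1.48 FPKM) lies close to its brain point (1.86 FPKM).

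Members that neighbour each other on a chromosome, with gaps of at most 1 Mb, formed 5 clusters of 16 GABA-A genes. The 3 genes of the cluster on chromosome X (*Gabre*, *Gabra3* and *Gabrq*, from 72255999 to 72842602 of GRCm38) each reached 0.1 FPKM outside brain and summed to 6.89 FPKM in white adipose tissue. The 4 genes on chromosome 5 (*Gabrg1*, *Gabra2*, *Gabra4* and *Gabrb1*) summed to 51.6 FPKM in brain and at most 0.518 elsewhere. Windows before the start of a gene are shown for *Gabra3* and *Gabre*, neighbours that were both found in fat, and for *Grik5*, the broadest kainate gene. None has an exact match to either stretch of RE1 and so no letter is in capitals.
Gabra3, chrX:72656758-72657057 (minus strand): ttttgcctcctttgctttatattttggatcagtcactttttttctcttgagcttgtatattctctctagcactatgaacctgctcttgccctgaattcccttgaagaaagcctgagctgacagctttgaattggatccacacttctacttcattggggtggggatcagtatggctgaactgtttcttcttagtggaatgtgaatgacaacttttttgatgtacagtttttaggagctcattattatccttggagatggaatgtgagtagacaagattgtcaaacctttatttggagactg
Gabre, chrX:72274672-72274971 (minus strand): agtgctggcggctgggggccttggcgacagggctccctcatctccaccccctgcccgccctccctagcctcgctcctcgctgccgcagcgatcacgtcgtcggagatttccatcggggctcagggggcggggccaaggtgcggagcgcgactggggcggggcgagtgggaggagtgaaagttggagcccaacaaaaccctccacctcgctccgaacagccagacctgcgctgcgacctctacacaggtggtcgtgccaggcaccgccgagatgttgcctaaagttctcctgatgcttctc
Grik5, chr7:25072320-25072619 (minus strand): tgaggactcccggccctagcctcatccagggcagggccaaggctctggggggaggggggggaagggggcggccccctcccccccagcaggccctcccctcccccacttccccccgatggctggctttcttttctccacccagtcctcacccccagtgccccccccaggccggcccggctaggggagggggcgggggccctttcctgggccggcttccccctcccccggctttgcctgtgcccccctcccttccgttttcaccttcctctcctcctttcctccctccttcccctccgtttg
CpG pairs number 0 in that of *Gabra3*, 24 in that of *Gabre* and 10 in that of *Grik5*, against a median of 7 over all windows and of 11 over those of members. The *Grik5* window has a GC content of 72.0%, against a median of 52.7% over all windows. *Grik5* lies on the minus strand of chromosome 7 from 25009849 to 25072346, and its exons overlap those of no other gene.

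In cold iWAT the 8 members listed were *Gabra3*, *Gabre*, *Gabrq*, *Gria3*, *Gria4*, *Grik3*, *Grik5* and *Grin2d*, so all 3 genes of the cluster on chromosome X were among them. The other 37 members have no line in the iWAT table, and the rule that chose its genes is not stated. *Gabra3* was again the highest, and its lowest library (2.72 FPKM) lay above the highest library of any other member (2.07 FPKM, *Gabre*). The question of the comparison was whether Musclin from muscle changes gene expression in fat under cold. Over genes with a mean of at least 1 FPKM, 4 members were tested and none passed the cutoff of the study (unadjusted p under 0.05 and a log2 fold change beyond 0.5), or had an unadjusted p under 0.05, by limma, against 5.94% of all 12197 genes at the cutoff and 16.5% with such a p. The fold changes here are differences of log2(FPKM + 1), which makes folds of genes near 1 FPKM smaller, while the study used DESeq2. No gene in iWAT had an adjusted p under 0.05, the smallest being 0.0912. In bulk tissue fewer cells of a type and less RNA per cell cannot be told apart.

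*Gabra3* was at 4.05, 4.52 and 4.54 FPKM in WT and at 4.87, 2.72 and 4.21 FPKM in MCK-Musclin. MCK-Musclin libraries lay on both sides of the WT range. The difference was -0.15 on the log2(FPKM + 1) scale (95% interval -0.56 to 0.27, limma adjusted p = 0.718), and without the library at 2.72 FPKM it turned to 0.04. The one library above the WT range was the library labelled MCK-Musclin replicate 1, and without it the difference was -0.29.

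*Gabre* was at 0.858, 2.07 and 1.41 FPKM in WT and at 1.69, 1.69 and 1.70 FPKM in MCK-Musclin, all of them within the WT range. The log2 difference was 0.17 (95% interval -0.27 to 0.61, limma adjusted p = 0.687), and -0.01 without WT replicate 1. Over all libraries it was 0.30 with 0.1 and 0.32 with 0.01 added to FPKM. *Gria3*, the AMPA gene best represented in fat, was at 1.25, 1.46 and 1.56 FPKM in WT and at 1.68, 1.45 and 1.48 FPKM in MCK-Musclin, groups that overlap. Its log2 difference was 0.07 (95% interval -0.21 to 0.35, limma adjusted p = 0.816), and leaving out 1 library gave 0.0138 without WT replicate 1, 0.0260 without MCK-Musclin replicate 1 and 0.11 without WT replicate 3.

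*Grik5* was at 1.00, 1.04 and 0.892 FPKM in WT iWAT and at 1.11, 1.08 and 1.62 FPKM in MCK-Musclin iWAT. The groups did not overlap, which 17.9% of the genes showed in this direction, and MCK-Musclin replicate 3 stood above the other two. The log2 difference was 0.19 ± 0.14 (SE, n = 3 per group, 95% interval -0.13 to 0.52, limma adjusted p = 0.527), and 0.08 without MCK-Musclin replicate 3. Without the library labelled MCK-Musclin replicate 1, where *Ostn* was listed at 0, it was 0.24. Over all libraries the size depends on the value added to FPKM, with 0.33 when 0.1 and 0.35 when 0.01 was added. It also depends on scaling, with 0.15 after median-ratio scaling and 0.13 with quantile normalization. None of these fits passed the cutoff. The exact two-sided permutation p was 0.1, the smallest that 3 against 3 libraries allow. Markers of B cells (109 to 211 FPKM in WT, 239 to 326 in MCK-Musclin, 4 of 4 higher at the cutoff) moved with the groups. So did markers of T cells (40.9 to 48.4 in WT, 62.6 to 71.6 in MCK-Musclin, 2 of 4 higher at the cutoff). Brown fat markers (4 of 4 lower at the cutoff) summed to 433 to 789 FPKM in WT. They were at 480 FPKM in the library labelled MCK-Musclin replicate 1, within the WT range, and at 138 and 75.4 FPKM in replicates 2 and 3. Neuron markers summed to 4.96 to 5.77 FPKM in WT and to 5.71 to 7.57 in MCK-Musclin. The 1 neuron marker tested, *Stmn2*, was higher below the cutoff (log2 difference 0.37). Schwann cell markers summed to 77.5 to 85.8 FPKM in WT and to 74.4 to 76.7 in MCK-Musclin, although 1 of 5, *Ngfr*, was higher at the cutoff. The part of these B cell, T cell, brown fat, neuron and Schwann cell markers in the *Grik5* values was not tested.

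The other 4 listed members had means below 1 FPKM. *Gria4* lay between 0.314 and 0.571 FPKM, *Grin2d* between 0.0954 and 0.312, *Gabrq* between 0.0890 and 0.297, and *Grik3* between 0.111 and 0.234. WT and MCK-Musclin libraries overlapped in all 4. Of the partner lists, 13 scaffold genes, 5 of synthesis and breakdown, 4 that supply D-serine and glycine, 3 GABA-B receptor genes, 3 transporters and 1 auxiliary subunit were tested in iWAT. *Gabbr1*, the ligand-binding subunit of the metabotropic GABA-B receptor, rose at the cutoff, from 12.7, 9.603 and 10.2 FPKM in WT to 15.5, 16.0 and 15.8 in MCK-Musclin (log2 difference 0.51, limma adjusted p = 0.148). *Shank1*, a scaffold gene, was at 0.596, 0.218 and 0.510 FPKM in WT and at 0.760, 2.76 and 1.23 in MCK-Musclin, and passed the same cutoff (log2 difference 0.78, limma adjusted p = 0.241). No other gene of these lists passed it, so that 2 of 29 partner genes tested (6.90%) did, near the 5.94% of all genes. The B cell and T cell markers given above were higher in the same MCK-Musclin libraries, and their part in the *Gabbr1* and *Shank1* values was not tested.

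**Figure D4:**
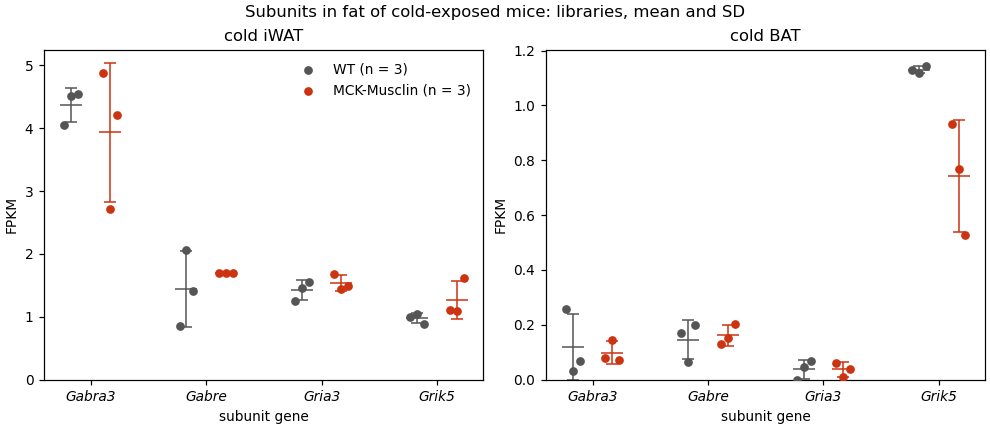
FPKM of *Gabra3*, *Gabre*, *Gria3* and *Grik5* in iWAT (left) and BAT (right) of cold-exposed mice, with 3 WT libraries in grey and 3 MCK-Musclin libraries in red per gene and bars for the mean ± SD. *Grik5* in BAT is at 1.12 to 1.15 FPKM in WT and at 0.528 to 0.934 FPKM in MCK-Musclin, while *Gabra3*, at 2.72 FPKM or more in each iWAT library, is at 0.256 FPKM or less in BAT.

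In cold BAT most of the family was listed at or near 0. Of the 45 members, 26 were listed at 0 in all 6 libraries, 6 were above 0 in all 6, and *Grik5*, *Gabre* (mean 0.153 FPKM) and *Gabra3* (mean 0.109 FPKM) had a mean of at least 0.1 FPKM. No member reached the mean of 1 FPKM required for the test, so none could be called, where 4% of 10893 genes were called at a log2 cutoff of 0.3. *Gabre* lay between 0.0653 and 0.201 FPKM and *Gabra3* between 0.0313 and 0.256 FPKM, with overlapping groups.

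*Grik5* was the one member at 0.5 FPKM or more in BAT. It was at 1.13, 1.12 and 1.15 FPKM in WT (mean 1.13 ± 0.0137, SD, n = 3) and at 0.934, 0.769 and 0.528 FPKM in MCK-Musclin (mean 0.744 ± 0.204). All MCK-Musclin libraries were below all WT libraries, as in 5.35% of the 12518 genes with a mean of at least 0.5 FPKM, and they were spread more widely. Over those genes the difference was -0.30 ± 0.13 on the log2(FPKM + 1) scale (SE, 95% interval -0.61 to 0.02, limma adjusted p = 0.977). It did not pass the cutoff that 3.95% of these genes passed. Without MCK-Musclin replicate 1 it was -0.37 (limma adjusted p = 0.996) and passed the cutoff, and without replicate 3 it was -0.20. The size depends on the value added to FPKM: over all 6 libraries it was -0.57 with 0.1 and -0.64 with 0.01 added, and neither fit passed the cutoff. The exact two-sided permutation p was 0.1, the smallest possible. Skeletal muscle markers summed to 165, 242 and 149 FPKM in the WT libraries and to 504, 251 and 326 FPKM in the MCK-Musclin libraries (4 of 4 higher at the cutoff), neuron markers to 1.932 to 2.395 and 1.63 to 2.11 FPKM, and brown fat markers to 6111 to 7268 and 5823 to 7152 FPKM. The part of the muscle RNA in the *Grik5* values was not tested.

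*Grin2d* also had groups that did not overlap in BAT, at 0.0967, 0.0172 and 0.0464 FPKM in WT and listed at 0 in the 3 MCK-Musclin libraries, so no fold can be given. Its mean was 0.0267 FPKM, and 2.33% of the 7672 genes with a mean above 0 and under 0.1 FPKM had all MCK-Musclin libraries below all WT libraries. Of the partner lists, 8 scaffold genes, 4 of synthesis and breakdown and 3 each of GABA-B receptors, transporters and D-serine and glycine supply were tested in BAT. None of these 21 genes was at the cutoff or had an unadjusted p under 0.05, by limma. Of all 10893 genes, 4% were at the cutoff and 533 had such a p. With so few partner genes the count of 0 is not read as a result. The sympathetic neuron markers *Th*, *Dbh* and *Npy* were listed at 0 in all 6 BAT libraries and have no line in the iWAT table.

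Set side by side over tables that were made separately, and with no test, *Gabra3* was at 5.23 FPKM in white adipose tissue of the tissue panel and at a mean of 4.37 FPKM in cold WT iWAT. For *Gabre* the values were 1.48 and 1.44 FPKM, for *Gria3* 2.65 and 1.42 FPKM, and for *Grik5* 1.82 and 0.979 FPKM. *Grik5* was at 4.52 FPKM in brown adipose tissue of the tissue panel and at a mean of 1.13 FPKM in cold WT BAT. In each of these pairs housing and table differ, and the panel value is from 1 library. The label of the panel does not name the white fat depot, which need not be inguinal.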

How the data were processed

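The authors made poly(A) RNA libraries, cleaned the reads (fastp, bowtie2), mapped them to GRCm38 (mm10) with HISAT2 as unstranded and deposited FPKM per gene, which the methods credit to StringTie. The submitters' processing notes list Bowtie2 2.4.1 and HISAT2 2.1.0, and Cuffdiff. The deposited iWAT table also holds the authors' own DESeq2 comparison (log2 fold changes, p-values and normalized group means), which was not used here. A total of 287 repeated lines was removed from the table of the 7 tissues and as many from that of BAT.

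MCK-Musclin was compared with WT within each table by limma (version 3.58.1, R 4.3.3; linear model with trended moderation) after log2 transformation of FPKM + 1. Genes needed an average of 1 FPKM or more over both groups, with Benjamini-Hochberg adjustment over all genes. For BAT a mean of at least 0.5 FPKM was added after the data were seen, since no member passed 1. The limma step was tested on simulated data. Further tools were Python 3.11.15 with scipy 1.17.1, pandas 2.3.3, matplotlib 3.10.9 and numpy 2.4.6. Positions are from GENCODE (GRCm38).

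The members and lists were chosen with earlier results of these data known. Full description was planned for members among the 20 highest in brain, highest in another tissue, or at 0.1 FPKM or more outside brain or in BAT. It was also planned for members listed in iWAT, and members outside these criteria could be named as well. Most other genes came from the partner and marker lists. The study states that its RNA-Seq replicates are biologically independent animals. Alternatives were other pseudocounts, filters, scalings and cutoffs, robust estimation, the replicate number as a block and leaving out each library. Some members are counted in sums and shares but not reported here by name, and protein sequences were not used here.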

Additional observations from a re-analysis of the deposited data

Results flagged for a closer look

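The *Grik5* libraries of the groups lay apart in opposite directions in the 2 fat depots of cold-exposed mice. Each MCK-Musclin library lay below each WT library in BAT, with a difference of the means of -0.387 FPKM, as in 5.35% of genes with a mean of at least 0.5 FPKM, and each lay above in iWAT, with a difference of 0.292 FPKM, as in 17.9% of genes tested. The difference between the depots was not tested, because the tables were made separately. In neither depot did the gene pass the cutoff of the study in the main fit. That fit was by limma on log2(FPKM + 1), while the study used DESeq2. No group had the 4 libraries needed to look for a library apart from the others.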

How the results depend on the processing

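The members highest in brain numbered 39 after rescaling to TPM or by median ratio, and 38 among those above 0.5 FPKM in some tissue. The brain share of the member sum was 96.4% in TPM and 94.3% by median ratio. At a level of 0.5 FPKM, 11 members were found outside brain in place of 24, and 28 at 0.05 FPKM. No member passed the cutoff in iWAT or BAT under any alternative planned for that count, including each library left out (0 to 0). In BAT this says nothing of stability, since the filter left 0 members to test in most of these fits and 1 without MCK-Musclin replicate 3 or at a mean of 0.5 FPKM. The fit of BAT without a filter drew a warning from limma that most variances are 0, so its p-values are not reliable. *Grik5* in BAT over genes of at least 0.5 FPKM, a set chosen after seeing the data, passed the cutoff with quantile normalization (log2 difference -0.30, limma adjusted p = 0.967) and without MCK-Musclin replicate 1 (-0.37), and lay between -0.64 and -0.20 over all alternatives, with adjusted p from 0.916 to 0.996. In iWAT, leaving out 1 library, *Gabra3* lay between -0.29 and 0.0439 (without MCK-Musclin replicate 2) and *Gabre* between -0.0115 (without WT replicate 1) and 0.35. *Gria3* turned to -0.00342 with quantile normalization, and the cause was not tested. Adjusted p over all iWAT alternatives ran from 0.442 to 0.991 for the 4 members tested. Genes at the iWAT cutoff were 615 higher and 110 lower, and 426 higher and 187 lower after median-ratio scaling.

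Deviations from the group means of libraries with the same replicate number correlated at 0.235, 0.0615 and 0.107 in iWAT and at -0.0951, -0.00463 and 0.00937 in BAT. In iWAT all of them were positive, and only MCK-Musclin replicate 2 correlated best with another number (0.0702, WT replicate 3). A pairing in iWAT can thus not be excluded. The numbers were not taken as pairs. With the replicate number as a block, 0 members passed in iWAT and 0 in BAT, 620 genes were higher and 154 lower in iWAT, and 214 were higher and 246 lower in BAT, against 202 and 234 without it.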
